A study of Homo sapiens with 4 samples.

Results

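A set of 10 genes of secreted and membrane-bound serine proteases was described across control and ARID1A knockdown libraries of HCT116, an established human colon carcinoma cell line. They were 6 kallikreins (KLK5, KLK6, KLK7, KLK8, KLK10 and KLK11), the plasminogen activators PLAU and PLAT, and the membrane-anchored proteases ST14 and TMPRSS4. Each was matched by its symbol to 1 row of every table, 10 of the 60766 features kept. The 10 genes were chosen from their measured values in this same contrast, so their values below are a description, and no p-value of them is given. RNA came from 2 control libraries and 2 libraries of cells labelled as an ARID1A knockdown by short hairpin RNA. ARID1A is part of SWI/SNF, a complex that moves nucleosomes with energy from ATP. The study asked how its loss relates to immune functions. The hairpin sequence, whether the controls carried a control hairpin, and whether the replicates were separate cultures are not stated in the labels, so every spread and p-value measures the spread between these libraries, which may be technical.

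Kallikreins are secreted serine proteases encoded side by side in 1 cluster. They are made as inactive precursors and are switched on when another protease, often another kallikrein, removes a short propeptide. In stratified epithelia they cut the junction proteins that hold cells together, and several of them are made at raised levels in colorectal and other carcinomas. The plasminogen activators, urokinase (PLAU) and tissue-type plasminogen activator (PLAT), cut plasminogen to plasmin, a protease that degrades fibrin and matrix. Urokinase acts at the cell surface on its receptor PLAUR. Matriptase (ST14) and TMPRSS4 are anchored in the plasma membrane of epithelial cells. Matriptase is held in check by the Kunitz-type inhibitors SPINT1 and SPINT2.

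Levels were read as FPKM, fragments per kilobase of transcript scaled to the mapped fragments of a library, which is scaled by transcript length and so can be compared between genes. Differences are knockdown minus control on the log2(FPKM + 1) scale, where the differences of low genes come out too small. The depth was estimated at 69000000 and 71000000 fragments for the controls, against 76000000 and 74500000 for the knockdown, so an FPKM of 1 stands for about 69 to 76 fragments per kilobase. ARID1A itself was at 11.1 and 11.4 FPKM in the controls, against 7.05 and 6.13 FPKM in the knockdown libraries, a partial reduction (log2 difference -0.69, SE 0.0774, limma adjusted p = 0.00438). By exact permutation (two-sided) p was 0.333, the smallest that 2 libraries against 2 allow. Of the 10 colon carcinoma epithelial markers, KRT8, KRT18, KRT19, EPCAM, CDH1 and CDX2 were each above 10 FPKM in every library, KRT20 was lower in the controls, VIL1 and LGALS4 stayed below 1 FPKM and CDX1 was listed at 0. Of the markers of other cell types, 9 of 10 for leukocytes, 9 of 10 for fibroblasts and 8 of 8 for endothelium were below 1 FPKM in every library, with TYROBP and CD3E at 0. The exceptions were the leukocyte marker CORO1A, at 1.01 and 1.58 FPKM in the controls, against 3.35 and 2.14, and the fibroblast marker COL1A1, at 4.81 and 3.58 FPKM, against 5.88 and 6.15. The leukocyte list summed to 2.53 and 2.94 FPKM, against 4.38 and 2.80, the fibroblast list to 5.08 and 3.79, against 6.25 and 6.46, and the endothelial list to at most 0.805 in any library. Their part in the results was not tested.

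Within the set, 7 genes were higher and 3 lower in the knockdown, and the 2 groups of libraries did not overlap for any of the 10. Groups also failed to overlap for 72.3% of the 13605 tested features. In the fit over all of these, a limma adjusted p under 0.05 was reached by 37.1% of features, 18.2% higher and 18.9% lower. Of the 10 genes, 6 were past it as higher and 3 as lower, with TMPRSS4 not past it. These counts only restate the choice of the genes, which used the same contrast, and nothing is read from them. With any 1 library left out, fewer of the 10 genes were past it, and so were fewer of all tested features. The median absolute log2 difference of the 10 genes was 0.50, beside 0.18 over all tested features. It too follows from the choice of the genes, and nothing is read from it. The plot of FPKM by library shows the separation of each gene, and the plot against all tested features shows its size.

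**Figure D1:**
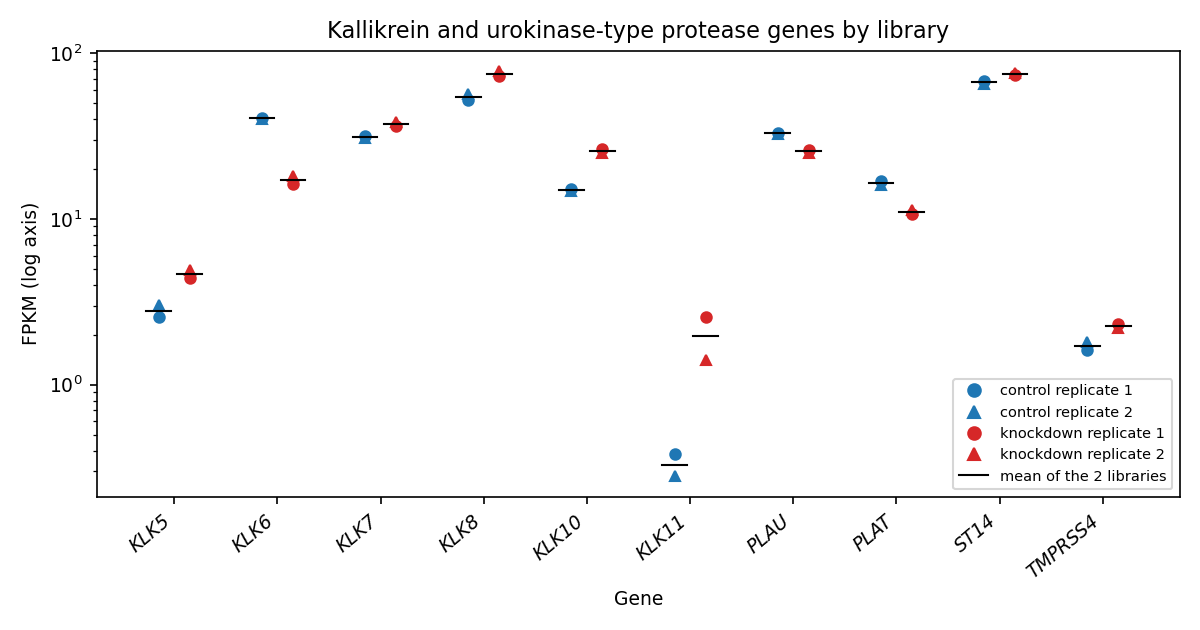
FPKM on a log axis for each of the 10 protease genes, with 1 point per library (circle for replicate 1, triangle for replicate 2, blue for control, red for knockdown) and a line at the mean of the 2 libraries. KLK6, PLAU and PLAT lie lower in the knockdown and the other 7 genes higher, with KLK11 the only 1 of the 10 below 1 FPKM in either group.

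**Figure D2:**
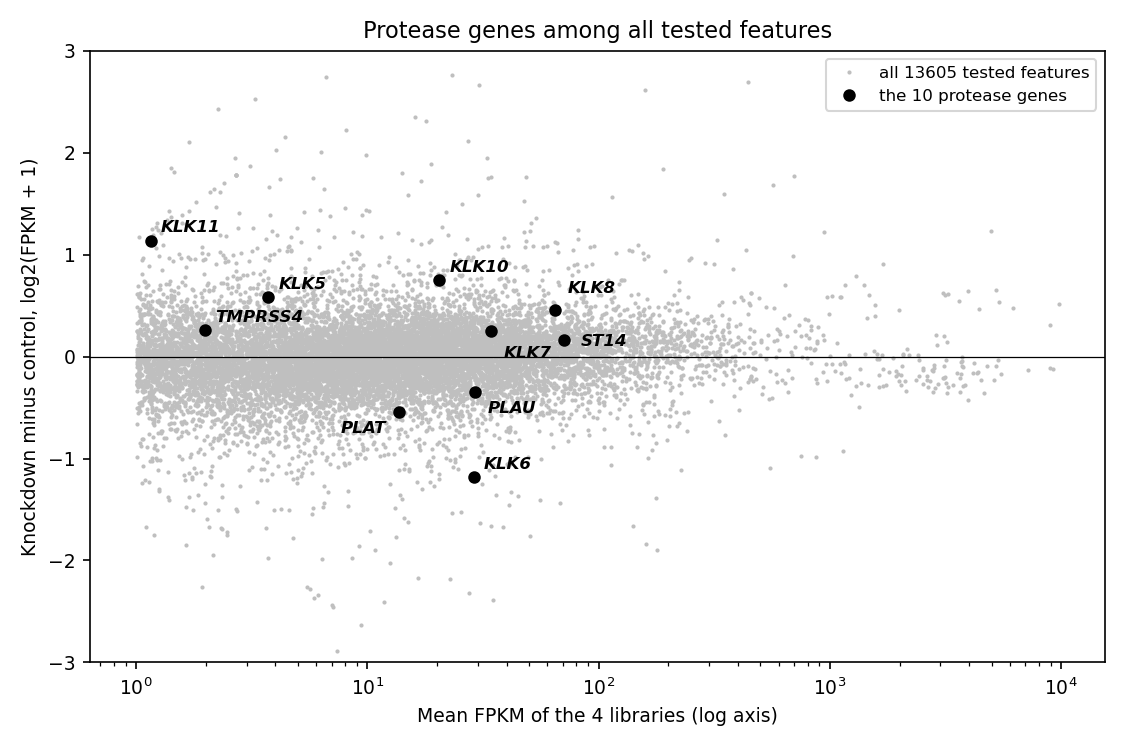
Difference between knockdown and control on the log2(FPKM + 1) scale against the mean FPKM of the 4 libraries on a log axis, for 13605 tested features (grey) and the 10 protease genes (black). KLK6 at -1.18 and KLK11 at 1.14 are the members farthest from 0, and 13 grey features lie outside the vertical range.

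The kallikrein that differed most among the well expressed ones was KLK6, a trypsin-like protease also known as neurosin. It was at 40.7 and 39.9 FPKM in the controls, against 16.3 and 18.2 FPKM in the knockdown libraries. Both knockdown values lay far below both controls. The mean went from 40.3 ± 0.562 to 17.2 ± 1.4 FPKM (SD, n = 2), 2.34-fold lower, a log2 difference of -1.18.

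Its immediate neighbours differed in the other direction. KLK5, a trypsin-like kallikrein that activates other kallikreins in the skin, lies at one end of the row of 6 genes, 5.54 kb from KLK6. It was at 2.55 and 3.02 FPKM in the controls, against 4.40 and 4.92 FPKM in the knockdown, 1.67-fold higher in the mean. KLK7, a chymotrypsin-like protease that works with KLK5 in shedding of the outer skin layer, lies 6.79 kb beyond KLK6 on the other side. It was at 31.6 and 30.8 FPKM in the controls, against 36.0 and 38.4 FPKM in the knockdown, 1.19-fold higher. KLK6 was thus the single gene of the row with a lower level in the knockdown, although it sits between 2 genes with higher levels. The promoter windows of these 3 adjacent genes, on the minus strand of GRCh38.p14 as given by RefSeq, are shown because the genes lie side by side and differ in opposite directions. Each runs from 250 bases before to 50 bases after an annotated start, 5′ to 3′, at chr19:50952989-50953288 for KLK5, chr19:50969542-50969841 for KLK6 and chr19:50984015-50984314 for KLK7, the farthest upstream of its 3 annotated starts. Capitals mark matches to the GC box, GGGCGG on either strand, a motif bound by SP1-type factors.
KLK5: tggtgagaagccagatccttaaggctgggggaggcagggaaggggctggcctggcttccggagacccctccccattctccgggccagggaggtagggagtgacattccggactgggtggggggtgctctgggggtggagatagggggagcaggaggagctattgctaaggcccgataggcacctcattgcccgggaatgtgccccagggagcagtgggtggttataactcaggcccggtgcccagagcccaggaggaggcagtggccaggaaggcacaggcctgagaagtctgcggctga
KLK6: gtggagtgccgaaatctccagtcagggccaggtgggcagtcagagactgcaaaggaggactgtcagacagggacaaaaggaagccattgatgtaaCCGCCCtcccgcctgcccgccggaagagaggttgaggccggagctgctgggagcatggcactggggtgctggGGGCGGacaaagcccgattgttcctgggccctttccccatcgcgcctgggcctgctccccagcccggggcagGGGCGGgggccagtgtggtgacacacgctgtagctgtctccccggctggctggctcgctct
KLK7: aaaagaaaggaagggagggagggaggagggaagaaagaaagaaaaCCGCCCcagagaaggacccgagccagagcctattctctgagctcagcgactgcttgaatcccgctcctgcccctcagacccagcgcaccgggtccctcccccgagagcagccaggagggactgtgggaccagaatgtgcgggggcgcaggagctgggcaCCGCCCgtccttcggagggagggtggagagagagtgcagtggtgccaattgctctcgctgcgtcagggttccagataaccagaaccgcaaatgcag
The KLK6 window held 3 GC boxes and this KLK7 window 2, while the KLK5 window held 0. GC boxes are common, with a match in 45.0% of the 35116 RefSeq promoter windows of this length.

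RefSeq windows were matched for 6 of the 10 genes (KLK5, KLK6, KLK7, KLK10, KLK11 and PLAU), 11 windows in all, since 4 of these genes have more than 1 annotated start. Windows on chromosome 8, where PLAT lies, were left out of the selection, so PLAT was not searched. A GC box stood in 6 of the 11 windows and in at least 1 window of 4 of the 6 genes. The AP-1 motif TGANTCA, the grainyhead motif AACCGGTT and the TATA box TATAAA, each searched on both strands, had no match in any of the 11. Of all 35116 windows, 7.71% held the AP-1 motif, 0.134% the grainyhead motif and 11.5% the TATA box, and a missing match says only that these letters are not in the window. Both KLK10 windows and the KLK5 window held 0 GC boxes, as did 1 of the 2 KLK11 windows, while the other KLK11 window held 3. Genes with higher levels in the knockdown thus had windows with 3 GC boxes (KLK11), with 1 or 2 (KLK7) and with 0 (KLK5, KLK10, KLK11). No window was matched for KLK8, ST14 and TMPRSS4, which were higher as well. The part of these motifs in the levels was not tested. The ratio of observed to expected CpG was 0.242 for KLK5, 0.46 for KLK6, 0.475 to 0.536 for KLK7, 0.353 and 0.379 for KLK10 and 0.114 and 0.305 for KLK11. All of these were below the median of 0.579 over all windows.

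KLK8, a trypsin-like protease known as neuropsin, was the kallikrein with the highest level in both groups. It was at 52.2 and 56.6 FPKM in the controls, against 72.3 and 77.8 FPKM in the knockdown, 1.38-fold higher. KLK10, a kallikrein reported as lost in several tumour types, was at 15.2 and 14.7 FPKM in the controls, against 26.5 and 25.1 FPKM in the knockdown. That is a 1.73-fold higher mean (14.9 ± 0.345 to 25.8 ± 1.01 FPKM, SD, n = 2) with a spread within each group much smaller than the difference between them.

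KLK11, another trypsin-like kallikrein, had the largest ratio and the least secure level. It was at 0.380 and 0.280 FPKM in the controls, against 2.55 and 1.41 FPKM in the knockdown libraries. The 2 knockdown values themselves differed more, in proportion, than those of any other member, and the mean went from 0.330 ± 0.0711 to 1.98 ± 0.81 FPKM (SD, n = 2), 6.0-fold higher. The control values stand for about 26 and 20 fragments per kilobase, beside 194 and 105 in the knockdown. KLK11 passed the filter of a mean FPKM of 1 only through its knockdown values. Its log2 difference was 1.14 with a pseudocount of 1 and 2.23 with a pseudocount of 0.1, and it was 0.86 without knockdown replicate 1.

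The 6 kallikreins lie within 84.7 kb of chromosome 19 (50943303 to 51028039, GRCh38), inside a cluster of 15 kallikrein genes that spans 265.1 kb. All 6 are protein coding and transcribed from the minus strand. They held 96.6% and 96.7% of the summed FPKM of the 15 genes in the controls, against 98.0% and 97.6% in the knockdown libraries. The family summed to 147.5 and 150.2 FPKM in the controls, against 161.3 and 170.0 in the knockdown, so the total differed far less than its make-up. KLK6 took 27.6% and 26.6% of the family total in the controls, against 10.1% and 10.7% in the knockdown. KLK8 went the other way, from 35.4% and 37.7% to 44.8% and 45.8%, and KLK10 from 10.3% and 9.78% to 16.4% and 14.8%. KLK7 held a similar share, at 21.4% and 20.5% against 22.3% and 22.6%. In each control library KLK6 stood above KLK7, with KLK6 at 1.29 and 1.30 times the FPKM of KLK7, and in each knockdown library KLK7 stood above KLK6, at 2.22 and 2.11 times. The order of KLK6 and KLK10 was also exchanged, with KLK6 at 2.68 and 2.72 times KLK10 in the controls and KLK10 at 1.63 and 1.37 times KLK6 in the knockdown.

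**Figure D3:**
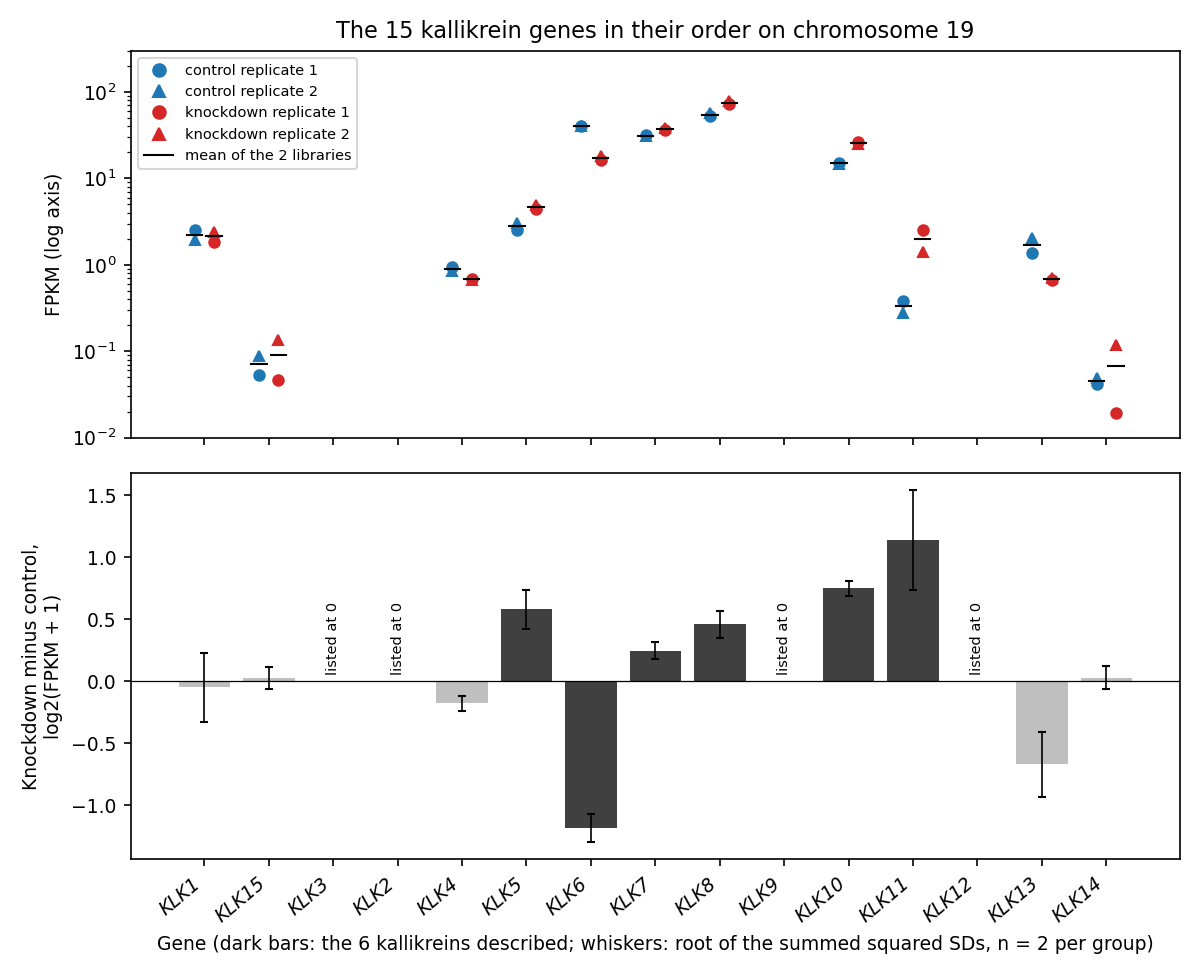
Upper panel, FPKM on a log axis in each library for the 15 kallikrein genes in chromosomal order, with values of 0 not drawn. Lower panel, knockdown minus control on the log2(FPKM + 1) scale with the root of the summed squared SDs of the 2 groups as whiskers. KLK6 at -1.18 lies between KLK5 at 0.58 and KLK7 at 0.25.

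Of 13 other genes of the locus (the 9 remaining kallikreins, the pseudogene KLKP1 and the flanking genes ACP4, CTU1 and SIGLEC9), 3 passed the filter, and 0 rose and 1 fell at a limma adjusted p under 0.05 (median log2 difference of the 3, -0.05, beside -0.003 for all tested features). KLK13, which lies between KLK12 and KLK14, fell from 1.36 and 2.05 FPKM to 0.671 and 0.705 FPKM (log2 difference -0.67, SE 0.161, limma adjusted p = 0.0324). It passed the filter only through its control values, the group where it was higher. The call was lost without control replicate 2 (adjusted p = 0.0967), without knockdown replicate 1 (0.0978) or 2 (0.0914), and with no filter (0.109). KLK1, tissue kallikrein, was at 2.56 and 1.92 FPKM in the controls, against 1.84 and 2.42 in the knockdown, with overlapping groups (limma adjusted p = 0.822). KLK2, KLK3, KLK9 and KLK12 were listed at 0 in all 4 libraries. Expression in the cluster was thus held mainly by the stretch from KLK5 to KLK11, with KLK9 as the 1 gene listed at 0 inside it.

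PLAU, which encodes urokinase, lies on chromosome 10 (73909177 to 73917496, GRCh38, plus strand). It was at 32.8 and 32.7 FPKM in the controls, against 25.9 and 25.1 FPKM in the knockdown libraries. The 2 groups were clearly apart, and the mean went from 32.7 ± 0.106 to 25.5 ± 0.576 FPKM (SD, n = 2), 1.28-fold lower. RefSeq gives it a pair of annotated starts with unlike promoter windows, both shown to set them beside the kallikrein windows, at chr10:73910360-73910659 and chr10:73910882-73911181 on the plus strand of GRCh38.p14, with GC boxes in capitals.
PLAU upstream start: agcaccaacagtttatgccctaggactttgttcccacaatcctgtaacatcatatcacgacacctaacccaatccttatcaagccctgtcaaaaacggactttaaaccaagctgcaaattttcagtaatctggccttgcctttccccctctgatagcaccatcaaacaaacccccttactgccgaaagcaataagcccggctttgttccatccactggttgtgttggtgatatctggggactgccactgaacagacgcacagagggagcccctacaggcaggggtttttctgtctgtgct
PLAU downstream start: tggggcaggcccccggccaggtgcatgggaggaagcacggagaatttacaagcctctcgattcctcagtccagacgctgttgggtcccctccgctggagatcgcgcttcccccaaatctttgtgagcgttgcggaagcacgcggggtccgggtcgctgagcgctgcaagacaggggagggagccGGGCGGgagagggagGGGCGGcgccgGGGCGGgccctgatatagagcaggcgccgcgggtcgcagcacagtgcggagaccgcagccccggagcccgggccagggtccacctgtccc
The upstream window held 0 GC boxes and 48.7% G and C bases, and the downstream window 3 GC boxes and 70.0%. The downstream window had a ratio of observed to expected CpG of 0.774, the highest of the 11 windows and above the median of 0.579. Gene-level FPKM does not tell which start was used.

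The other genes of plasminogen activation were read from a list of 21, of which 15 were tested. Over all tested features, 18.2% passed as higher and 18.9% as lower. All 6 lists were drawn up with earlier results of these data known, so their counts are a description. Of the 15 tested here, 2 rose, 9 fell and 4 did not pass (limma adjusted p under 0.05; median log2 difference -0.26, beside -0.003 for all tested features). The number that rose was 1 without control replicate 1 or 2 or knockdown replicate 2. PLAUR, the urokinase receptor, was at 54.3 and 52.2 FPKM in the controls, against 53.5 and 56.8 in the knockdown, with overlapping groups (limma adjusted p = 0.456). SERPINE2, which inhibits urokinase and thrombin, fell from 147 ± 2.76 to 79.4 ± 3.35 FPKM (SD, n = 2), 1.85-fold. SERPINA5, the protein C inhibitor, which acts on urokinase and kallikreins as well, fell from 17.6 ± 1.34 to 3.998 ± 0.0397 FPKM, 4.41-fold. The ratio of PLAUR to PLAU FPKM was 1.66 and 1.60 in the controls, against 2.06 and 2.26 in the knockdown.

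Among these partners S100A10, which with annexin A2 forms a surface complex that binds plasminogen, rose from 221 and 215 FPKM to 405 and 418 FPKM (log2 difference 0.91, SE 0.0363, limma adjusted p = 4.03e-04). ANXA2, its partner in that complex, fell from 1054 ± 2.73 to 891 ± 3.76 FPKM (SD, n = 2). The other gene that rose was SERPINI1, a neuronal inhibitor of tissue-type plasminogen activator, from 11.6 ± 0.437 to 14.7 ± 1.47 FPKM (limma adjusted p = 0.0358). Without control replicate 1 or 2 or knockdown replicate 2, S100A10 was the 1 rise left, so the call of SERPINI1 was lost in each. ANXA2 and SERPINI1 were named after their values were seen.

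PLAT, which encodes tissue-type plasminogen activator, lies on chromosome 8 (42174718 to 42207676, GRCh38, minus strand). It was at 16.9 and 16.1 FPKM in the controls, against 10.6 and 11.4 FPKM in the knockdown libraries. Every knockdown value was below every control value, and the mean went from 16.5 ± 0.626 to 10.99 ± 0.529 FPKM (SD, n = 2), 1.5-fold lower. Both plasminogen activators were thus lower in the knockdown, PLAT by the larger ratio, and PLAU stood at 1.94 and 2.03 times the FPKM of PLAT in the controls, against 2.44 and 2.21 times in the knockdown.

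ST14, which encodes matriptase, lies on chromosome 11 (130159782 to 130210362, GRCh38, plus strand). It was at 67.7 and 65.4 FPKM in the controls, against 73.3 and 76.1 FPKM in the knockdown, 1.12-fold higher, the smallest ratio among the 10. TMPRSS4, a type II transmembrane serine protease on the same chromosome (118077012 to 118121890, plus strand), was low throughout. It was at 1.63 and 1.81 FPKM in the controls, against 2.33 and 2.18 in the knockdown, 1.31-fold higher, and values stand for about 112 to 177 fragments per kilobase. A list of 20 other serine proteases was set up as membrane-anchored, though some of them, such as PRSS22, are secreted. Of these 20, 3 were tested, of which 0 rose and 2 fell (limma adjusted p under 0.05; median log2 difference -0.50). PRSS22 fell from 14.4 and 12.2 FPKM to 6.90 and 7.80 FPKM (log2 difference -0.78, SE 0.0995, limma adjusted p = 0.00605). PRSS27 fell from 2.89 ± 0.541 to 1.75 ± 0.256 FPKM (SD, n = 2; limma adjusted p = 0.0479), and its call was lost without any 1 of the 4 libraries (adjusted p from 0.0662 to 0.165). PRSS8, or prostasin, which matriptase activates in many epithelia, was at 57.0 ± 4.11 and 53.2 ± 1.23 FPKM (limma adjusted p = 0.262).

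The inhibitors set beside matriptase were at levels similar to or above its own. SPINT1 was at 73.7 and 72.0 FPKM in the controls, against 80.3 and 85.5 in the knockdown (log2 difference 0.18, SE 0.0455, limma adjusted p = 0.0351), a call lost without control replicate 1 (adjusted p = 0.12) or 2 (0.163) or knockdown replicate 2 (0.0933). The ratio of SPINT1 to ST14 FPKM was 1.09 and 1.10 in the controls, against 1.09 and 1.12 in the knockdown, so the pair kept nearly the same proportion. SPINT2 was at 358 ± 0.765 and 349 ± 9.77 FPKM (limma adjusted p = 0.452; 0.0218, lower, under quantile normalization). A list of 25 genes of inhibitor families was read as well, not all of which inhibit serine proteases, with CST6 and SERPINB5 among the exceptions. Of these 25, 11 were tested, of which 2 rose, 6 fell and 3 did not pass (limma adjusted p under 0.05; median log2 difference -0.42). The number that rose was 1 without control replicate 1 or 2 or knockdown replicate 2. SERPINB5, or maspin, was the other that rose, from 28.0 and 26.0 FPKM to 43.3 and 42.8 FPKM (log2 difference 0.65, limma adjusted p = 0.0017). The falls with the largest log2 differences were in SERPINA3, an inhibitor of chymotrypsin-like proteases (-3.92), SERPINA1, an inhibitor of neutrophil elastase (-3.06), and SLPI, a secreted leukocyte protease inhibitor (-2.41). SERPINA3, at 0.211 ± 0.0194 FPKM in the knockdown (SD, n = 2), passed the filter only through its control values. SPINK5, which encodes the kallikrein inhibitor LEKTI, was at most at 0.0137 FPKM and was not tested.

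Of 41 other secreted proteins of the trypsin fold, 8 were tested. Of these 1 rose, 4 fell and 3 did not pass (limma adjusted p under 0.05, median log2 difference -0.37). The count of falls was 2 without control replicate 1 or knockdown replicate 2, and the count of rises 0 without control replicate 2 and 2 without knockdown replicate 1. PRSS3, a trypsinogen gene named after its values were seen, rose from 46.0 ± 2.7 to 64.4 ± 3.98 FPKM (SD, n = 2). Trypsinogen genes share near-identical sequence, so that value is uncertain. PRSS23 fell from 4.65 ± 0.0939 to 2.59 ± 0.189 FPKM and PRSS12, or neurotrypsin, from 6.59 ± 0.698 to 3.84 ± 0.0754 FPKM. PRTN3 and CFB fell with less secure calls. PRTN3 (4.04 ± 0.392 to 2.39 ± 0.224 FPKM) was lost without control replicate 1 (limma adjusted p = 0.0742) or knockdown replicate 2 (0.0604), and CFB (1.41 ± 0.1 to 0.667 ± 0.107 FPKM) without any 1 of the 4 libraries (0.051 to 0.108). CFB passed the filter only through its control values.

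Among 27 receptors and substrates of these proteases, 19 were tested, of which 6 rose, 7 fell and 6 did not pass (limma adjusted p under 0.05; median log2 difference -0.07). The number that rose was 2 without control replicate 1 and 3 without control replicate 2 or knockdown replicate 2. F2RL1, the protease-activated receptor PAR2 that trypsin-like kallikreins and matriptase can cut, rose from 95.8 and 96.9 FPKM to 135 and 133 FPKM (log2 difference 0.47, SE 0.0329, limma adjusted p = 0.00142). ITGB4, an integrin chain of hemidesmosomes, rose from 109 ± 0.822 to 218 ± 9.11 FPKM (SD, n = 2), 1.99-fold. EPCAM, an adhesion protein that matriptase cleaves, fell from 312 ± 0.233 to 144 ± 4.27 FPKM, 2.17-fold. MET, the receptor of the matriptase-activated growth factor HGF, fell from 81.4 ± 3.86 to 30.2 ± 1.19 FPKM, 2.70-fold. The desmosomal cadherin DSC2 fell from 9.91 ± 0.178 to 2.92 ± 0.0468 FPKM, 3.40-fold. The plot of the lists places these genes side by side.

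**Figure D4:**
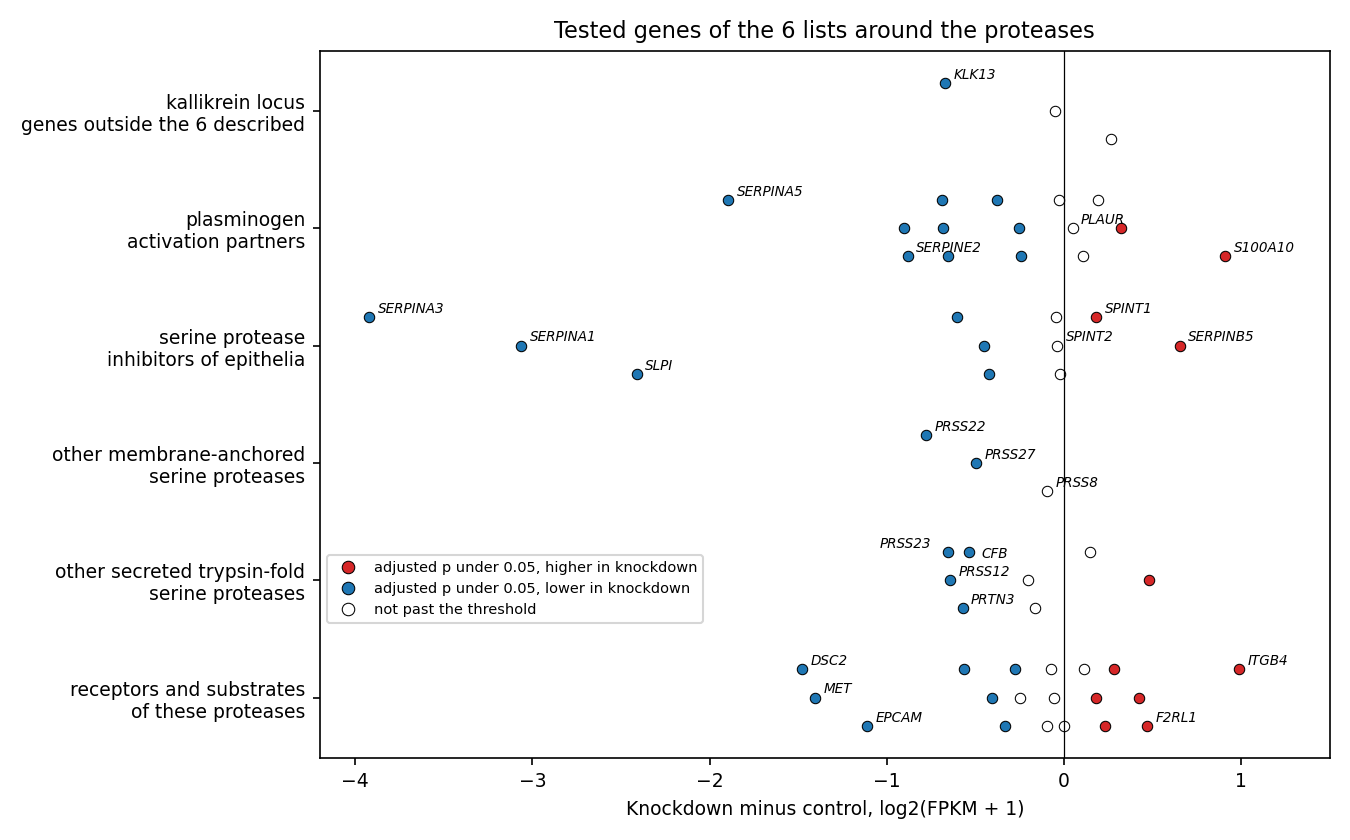
Knockdown minus control on the log2(FPKM + 1) scale for the tested genes of 6 lists around the proteases, 1 point per gene, filled red where higher and blue where lower at a limma adjusted p under 0.05 and open where not past the threshold. Vertical offsets within a list only separate the points. SERPINA3 at -3.92 lies farthest to the left and ITGB4 at 0.99 farthest to the right.

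Ranked by mean FPKM, the controls ran from ST14 at 66.5 over KLK8 (54.4), KLK6 (40.3), PLAU (32.7), KLK7 (31.2), PLAT (16.5), KLK10 (14.9), KLK5 (2.79) and TMPRSS4 (1.72) to KLK11 (0.330). No neighbours in that order overlapped between their 2 control values. In the knockdown the order was KLK8 (75.1), ST14 (74.7), KLK7 (37.2), KLK10 (25.8), PLAU (25.5), KLK6 (17.2), PLAT (10.99), KLK5 (4.66), TMPRSS4 (2.26) and KLK11 (1.98). There KLK8 overlapped ST14, KLK10 overlapped PLAU and TMPRSS4 overlapped KLK11, so these 3 pairs did not differ beyond their spread. The third place in the controls, held by KLK6, became the sixth in the knockdown, and KLK10 moved from the seventh to the fourth.

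The genes with a pattern nearest to KLK8 and ST14 over the 4 libraries were found by Euclidean distance between log2(FPKM + 1) values, each less its own mean. For KLK8 they were CDC42BPG, TMEM167A and KCNK1, at distances of 0.0136, 0.0254 and 0.0339. For ST14 they were CDC37, TUFM and TMEM183A, at 0.00916, 0.00971 and 0.0105. These are distances over 4 libraries and are given as a description.

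Reads of overlapping genes cannot be told apart where strand is not stated. Of the 10 genes, 7 overlapped at least 1 other annotated feature in the tables, 8 features in all, and none of these was above 0.397 FPKM in any library. Squamous epithelial markers were mostly low, with 7 of the 9 found below 1 FPKM in every library. Their summed level, most of it KRT10, was 24.2 and 25.9 FPKM in the controls, against 26.7 and 29.4 in the knockdown. KRT1 was at 0, and KRT14 went from 0.129 and 0.228 to 0.705 and 0.807 FPKM. KRT5, KRT6A, IVL and DSG3 were also higher without overlap, each below 1 FPKM. For KRT10, DSC3 and TP63 the groups overlapped. Over the 10 colon markers the sum was 3027 and 2922 FPKM against 4018 and 4173, most of it KRT8, KRT18 and KRT19, which were each higher. KRT20 went from 2.01 and 2.42 to 14.3 and 13.6 FPKM. The colon markers did not all differ in 1 direction. Mean EPCAM went down from 311.9 to 143.9 FPKM and mean CDH1 from 25.37 to 24.06 FPKM, both without overlap, and the CDX2 groups overlapped. Mitochondrial transcripts took 4.29% to 4.35% of the FPKM sum of the controls and 5.65% to 6.04% in the knockdown. The part of these differences in the protease values was not tested. In bulk RNA, fewer cells making a transcript and less transcript per cell cannot be told apart.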

How the data were processed

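Total RNA of 2 control and 2 ARID1A knockdown HCT116 samples was converted to sequencing libraries (NEBNext Ultra kit), per the labels' protocols. Per the file headers, each deposited table holds the FPKM of 1 library, made with STAR and Cufflinks on GRCh38 (hg38), per the submitters' processing notes. Versions of these tools, the annotation, the strand setting and any filters: not given in the sources used here.

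Each table had 60811 rows. The Y copies of 45 genes that X and Y share were removed, which left 60766 features. Values under 1e-09 (2347 in all) were read as 0. FPKM is not a count, so limma 3.58.1 (R 4.3.3, trended eBayes) was fitted to log2(FPKM + 1) of the 13605 features with a mean of at least 1 FPKM over the 4 libraries, with Benjamini-Hochberg adjustment over all of them and a threshold of 0.05. The prior had 2.79 degrees of freedom. The fit was also run on simulated data with independent noise for each gene and library. That run cannot speak to variation between separate cultures. Of all tested features, 6592 had an unadjusted p under 0.05. Starts are given with 1 added to those in the files. Depth was estimated from low FPKM values of single-transcript genes at least 1500 bases long (GENCODE release 29). With the totals found, 84.0% to 87.1% of the values below 8 fragments came within 0.1 of a whole fragment. The estimate subtracted 270 to 310 bases of fragment length from each transcript, so the fragments per kilobase given for short transcripts are too high.

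The members and lists were chosen with earlier results of these data known. Named genes were the 10 members, ARID1A, up to 4 called genes of each list by absolute log2 difference, and PLAUR, SPINT1, SPINT2, PRSS8 and F2RL1. An item of the lists is not reported here by name. KLK1, ANXA2, SERPINI1, PRSS3 and SPINK5 were added after their values were seen. The 6 lists held 147 genes. Likeness was computed for the kallikrein and the other member with the highest mean. Alternatives covered the pseudocount, filters, 3 scalings, the variance model, a replicate block and leaving out each library.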

Additional observations from a re-analysis of the deposited data

How the results depend on the processing

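Under 13 alternatives all 127 member differences that could be computed kept their sign, but most of these signs were fixed in advance. The filters, the variance model and the replicate block leave a difference unchanged. Because the groups did not overlap for any member, another pseudocount or a left-out library could not reverse a sign. Only the scalings could have done so. Of the 127 differences, 2 moved by more than the spread between libraries, both with a pseudocount of 0.1 (KLK11 to 2.23 and TMPRSS4 to 0.38). Of 294 values of 23 named genes, 266 stayed on the same side of the threshold, 27 lost the call and 1 gained it. ARID1A stayed called in each, at -0.60 to -0.78. The scalings moved the median of all genes by less than 0.1.

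With no filter, 2786 features were called (1373 rose, 1413 fell), and 5 members (2 higher). That setting gave 0 falls among kallikrein locus genes, 1 rise among plasminogen partners, 1 rise in the inhibitor list and 1 fall in the membrane-anchored list. A filter of 5 FPKM gave 0 locus falls, 1 membrane-anchored fall and 2 falls of secreted proteases. A filter of 0.1 FPKM gave 1 partner rise and 1 membrane-anchored fall, and no variance trend 1 partner rise, 1 inhibitor rise and 1 membrane-anchored fall. Quantile normalization gave 1 membrane-anchored fall.

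With 1 library left out, 1900 to 3259 features were called (954 to 1678 rose, 922 to 1598 fell) and 5 to 8 members (2 to 5 higher). Locus falls numbered 0 to 1, partner rises 1 to 2, inhibitor rises 1 to 2, membrane-anchored falls 1 to 1, secreted rises 0 to 2, secreted falls 2 to 3 and receptor rises 2 to 4.

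Deviations of same-numbered libraries correlated at -0.00993 across genes. This is 1 correlation, and it cannot show whether the libraries were prepared in pairs. With the replicate block 4126 features were called, with 1 partner rise and 1 inhibitor rise (SPINT1 lost, adjusted p = 0.0663), and CFB was lost (0.0603).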
